A study of Mus musculus with 14 samples.

Results

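The genes described here are 6 core factors of pluripotency, Pou5f1 (which encodes Oct4), Sox2, Nanog, Sall4, Utf1 and Lin28a. They were chosen by symbol, with every beadchip probe annotated to them, which gave 6 of 16593 gene symbols and 11 of 25697 probes. Each was followed over 7 groups of 2 arrays, all of strain C57/B6, in a study of how the enhancers of Oct4 act in naive and primed pluripotency. Embryonic stem cells (ESCs) carrying a pair of reporters, O4-DE-GFP/O4-PE-RFP, were derived from a blastocyst of crossed transgenic mice. Its GFP follows the distal enhancer (DE) of Oct4. Its RFP is a tdTomato gene placed in a 6 kb genomic Oct4 fragment that lacks the DE, so that the proximal enhancer (PE) and the proximal promoter drive it. This double-reporter line gave 4 sorted groups. Cells in serum plus LIF were sorted as GFP+RFP+ (serum RFP+) or GFP+RFP- (serum RFP-). Cells in N2B27 medium with LIF and the inhibitors CHIR99021 at 3 µM and PD0325901 at 1 µM (2i) were sorted as GFP+RFP-. Epiblast-like cells (EpiLCs) were sorted as GFP-RFP+. The remaining groups were epiblast-derived stem cells (EpiSCs), an O4-DE-GFP ESC line in serum plus LIF (the single-reporter line) and mouse embryonic fibroblasts (MEFs). The labels give no sort gate for these last groups.

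Oct4 is a POU-domain factor that binds octamer DNA, and Sox2 is an HMG-box factor that binds beside it, so that many enhancers of pluripotent cells carry joined Oct-Sox sites. Nanog, a homeodomain factor, and Sall4, a zinc-finger factor of the Spalt family, act in the same network. Utf1 is a chromatin-bound protein whose gene is a classical target of Oct4 and Sox2. Lin28a is an RNA-binding protein that blocks the maturation of let-7 microRNAs.

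Promoter sequences are shown for Pou5f1, Sox2 and Nanog, because Oct4 and Sox2 bind at their own genes and at Nanog. Matches to their motifs close to the start can be looked for in these sequences. Each is the 250 bases before a RefSeq transcript start on build GRCm38.p6, written 5′ to 3′ on the gene's strand, with matches to the searched motifs in capitals. The windows lie on the + strand at chr17:35505782-35506031 for Pou5f1, chr3:34649745-34649994 for Sox2 and chr6:122707239-122707488 for Nanog.
Pou5f1: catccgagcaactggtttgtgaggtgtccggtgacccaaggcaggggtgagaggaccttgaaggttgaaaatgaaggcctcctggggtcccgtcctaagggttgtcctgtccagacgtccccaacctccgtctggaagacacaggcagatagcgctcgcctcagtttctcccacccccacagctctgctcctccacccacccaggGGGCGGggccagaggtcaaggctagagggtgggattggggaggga
Sox2: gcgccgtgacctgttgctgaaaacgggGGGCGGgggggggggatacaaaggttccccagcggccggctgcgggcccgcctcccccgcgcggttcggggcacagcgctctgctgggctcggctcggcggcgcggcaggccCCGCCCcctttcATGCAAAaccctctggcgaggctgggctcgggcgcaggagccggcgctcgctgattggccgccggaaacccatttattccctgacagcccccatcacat
Nanog: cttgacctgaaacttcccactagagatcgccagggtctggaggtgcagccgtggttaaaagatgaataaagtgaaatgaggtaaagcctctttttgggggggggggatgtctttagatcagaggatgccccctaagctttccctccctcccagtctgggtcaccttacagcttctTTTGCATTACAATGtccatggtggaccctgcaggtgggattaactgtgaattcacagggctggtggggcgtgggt
The motifs, searched on both strands, were the octamer core ATGCAAA, the Sox site CATTGT, the GC box GGGCGG and the joined Oct-Sox site, which is the Sox site, any base and the octamer core in a row. Of 32851 promoter windows of the same length, 4.12% held the octamer core, 10.7% the Sox site and 32.7% the GC box. The joined site was found in 2 windows (0.00609%), both of them entries of Nanog. In the Nanog window shown, the joined match ends 62 bases before the start and contains the octamer and Sox matches. In the Sox2 window an octamer match lies 93 bases before the start, beside GC boxes at 106 and 218 bases. The Pou5f1 window shown holds 1 GC box, at 40 bases. Another Pou5f1 entry, not shown, holds a Sox match at 153 bases. Windows of Utf1 and Lin28a were searched too. The Utf1 window holds 4 GC boxes and no octamer, Sox or joined match, and the Lin28a window holds a Sox match at 91 bases. A match is only a string of letters, and none was tested for binding here. Sites outside these 250 bases, as in more distant enhancers, were not searched, so a missing match says nothing about them.

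Levels below are background-corrected, quantile-normalised log2 signals. A gene was called changed at a limma Benjamini-Hochberg adjusted p under 0.05 over the 10481 genes tested. Nothing in the labels says that replicates came from separate cultures, so p-values measure only the spread between arrays, which may be technical. In bulk samples, fewer cells of a type and less RNA per cell cannot be told apart. The EpiSC arrays stood apart from the rest. Their scanner medians were 313.5 and 316.8, against 142.6 to 209.4 on the other 12 arrays. Their correlation with each other was 0.976, against 0.997 to 0.998 within the other groups. The mean level of 11 fibroblast markers was 6.80 on EpiSC array 1 and 8.72 on EpiSC array 2. The naive-cell gene Esrrb, a nuclear receptor, read 11.32 on array 1 and 8.16 on array 2. Changes of the core factors in EpiSCs, and of the relatives and targets named there, are therefore given with and without each array. Extraembryonic endoderm markers (6 tested) averaged 8.24 and 7.52 on the EpiSC arrays, against 5.79 and 5.72 in 2i and 6.20 and 6.16 in EpiLCs. All 6 were detected on both EpiSC arrays, and 4 were called higher than in 2i and 5 higher than in EpiLCs, with 0 lower. Of all genes, 32.4% were higher in EpiSCs than in 2i and 27.9% higher than in EpiLCs. The same markers averaged 6.72 and 6.54 in serum RFP- cells, 7.16 and 7.24 in the single-reporter line and 7.25 and 7.11 in MEFs. Gata6 and Dab2 were higher in MEFs than in EpiSCs (8.96 against 7.74 and 12.54 against 10.37). Sox17, Sox7 and Foxa2 were lower in MEFs. Amn was lower there on average, but it read 9.27 on EpiSC array 1 and 6.35 on array 2, against 6.92 and 6.48 in MEFs. Of these markers Gata6, Sox17 and Foxa2 were not detected in 2i or EpiLCs. The part of other cells in the EpiSC values of the core factors was not tested. The single-reporter line also carried more fibroblast-marker signal, with a mean of 10.58 and 10.65 against 8.81 and 8.77 in serum RFP- cells and 12.65 and 12.75 in MEFs. Naive markers (7 tested) averaged 11.86 and 11.82 in 2i and 7.17 and 7.22 in EpiLCs. Primed markers (7 tested) averaged 7.59 and 7.61 in 2i and 10.45 and 10.38 in EpiLCs.

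With the tested probes, all 6 core factors were detected on every pluripotent array and were lower in MEFs than the pluripotent mean. The second Sox2 probe was detected on 10 of the 12 pluripotent arrays. In EpiSCs the tested Sox2 probe was only 0.44 log2 above MEFs. Against the pluripotent mean the gap was smallest for Sox2, which was low in EpiLCs and EpiSCs. It was smallest for Sox2 from serum RFP- cells and 2i too, at 4.07 and 4.31 log2, with Lin28a next at 6.31 and 5.59. From the single-reporter line it was smaller for Lin28a (3.45) than for Sox2 (3.94) with the tested probes. The second probes gave the other order, with MEFs minus that line at -1.32 for Sox2 and -4.41 for Lin28a. Against the mean of the 6 pluripotent groups, 6 of 6 were called lower in MEFs, where 84% of all genes were called, 44.1% lower and 39.8% higher. Below background in MEFs, Pou5f1 was at least 162-fold lower, Sall4 at least 188-fold, Utf1 at least 57.3-fold, Lin28a at least 24.1-fold and Sox2 at least 5.58-fold lower. Nanog was the exception in MEFs, since its probe read 6.62 on both arrays with a detection p-value of 0.018, and its difference was 124-fold. Among the pluripotent groups, the spread of the group means ran from 0.71 log2 for Pou5f1 to 3.87 for Sox2. Of the 15 pairs of pluripotent groups, Pou5f1 differed in 6, Utf1 in 8, Sox2 and Lin28a in 9 each, Sall4 in 10 and Nanog in 12. Over all genes and these 15 pairs, 54.3% of tests were called. With the groups ordered by level for each gene, 15 of 36 neighbouring pairs were called, and 9 of 30 among the pluripotent groups alone. Neighbours in such an order have the smallest differences by construction. Over all genes, each with its own order, 29.2% of neighbouring pairs were called, and 25.8% among the pluripotent groups.

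**Figure D1:**
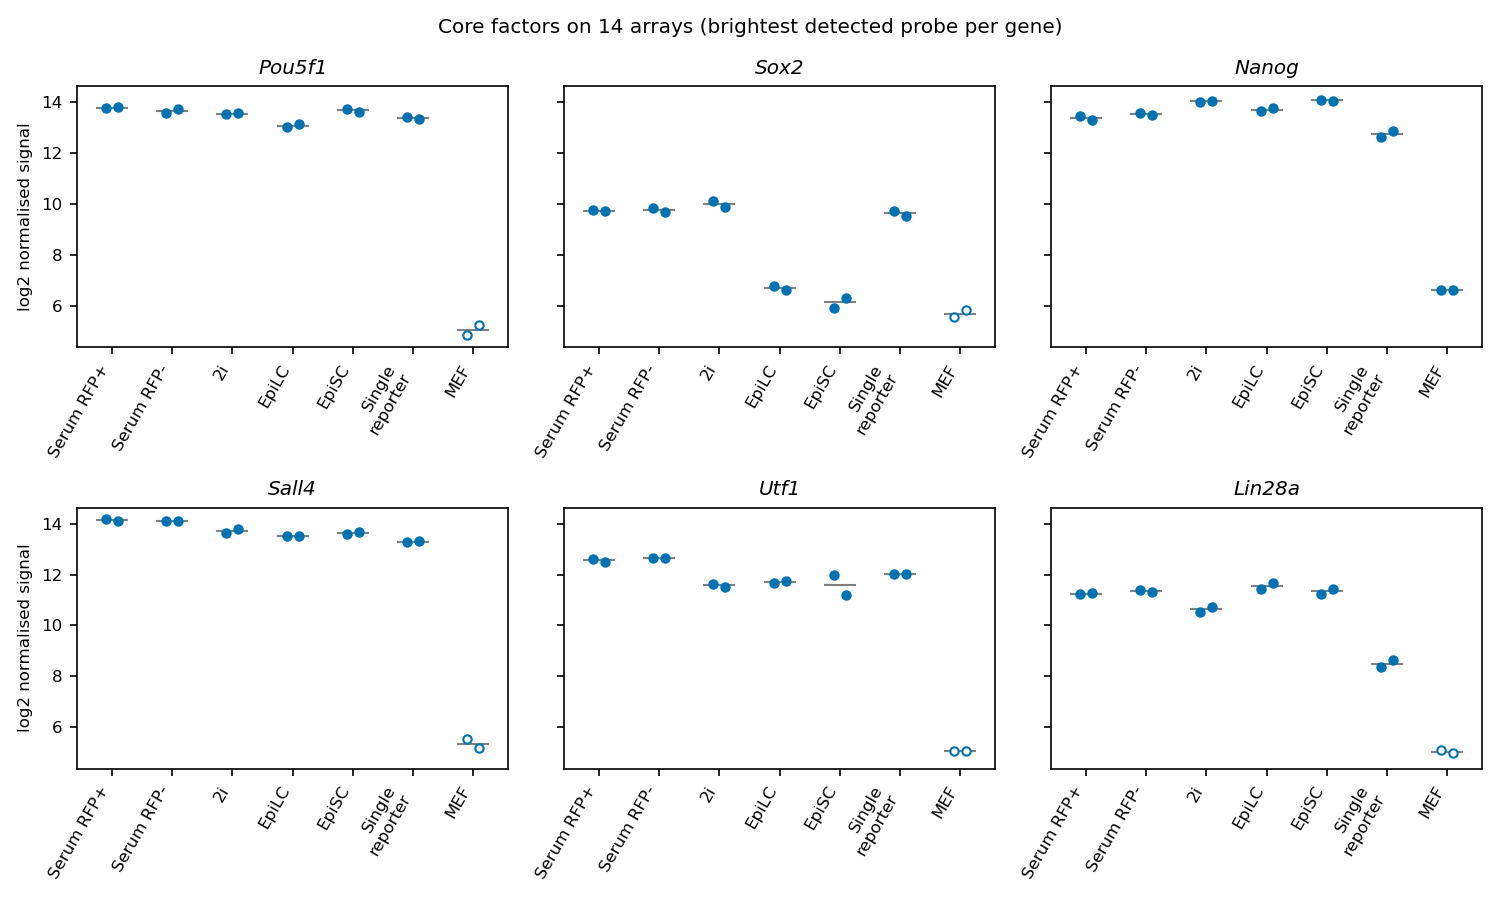
Log2 normalised signal of each core factor (vertical axes) on the 2 arrays of each of 7 groups (horizontal axes), for the probe used in the tests. Points are arrays, open where the detection p-value was 0.05 or above, and bars are group means. Sox2 drops in EpiLCs and EpiSCs, Lin28a drops in the single-reporter line, and the Utf1 values of the EpiSC arrays lie apart at 11.99 and 11.21.

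Across the RFP gate within serum, which reads the PE reporter, the core factors lay close together. None of the 6 was called between serum RFP+ and serum RFP- cells in the limma fit, where 0.124% of all genes were called, all of them lower in RFP+ cells (0% higher). None had an unadjusted p under 0.05 with its tested probe. Pou5f1 read 13.76 and 13.80 in RFP+ cells and 13.57 and 13.74 in RFP- cells, so the ranges did not overlap, but the difference of 0.13 had a 95% interval of -0.15 to 0.40. Nanog read 13.45 and 13.29 in RFP+ cells against 13.58 and 13.49 in RFP- cells, a difference of -0.17 with an interval of -0.37 to 0.04. The intervals of the other 4 lay within -0.52 and 0.34. The second Sall4 probe read 12.99 and 12.84 in RFP+ cells and 13.53 and 13.23 in RFP- cells, a difference of -0.46 that was not called (unadjusted p = 0.012, limma adjusted p = 0.67). The second Pou5f1 probe read 13.40 and 13.49 in RFP+ cells and 13.13 and 13.22 in RFP- cells. Its difference of 0.27 (interval -0.01 to 0.56) was not called either (unadjusted p = 0.059, limma adjusted p = 0.98). A p that misses the threshold does not show equal levels, and the intervals bound, for each probe, what could have been missed.

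Pou5f1 had the narrowest range of the 6 across pluripotent groups, and its lowest group was EpiLCs. It read 13.53 and 13.56 in 2i, 13.01 and 13.13 in EpiLCs and 13.75 and 13.61 in EpiSCs. Both EpiLC arrays lay below all 10 other pluripotent arrays. Pou5f1 fell by 0.48 (SE 0.12, 1.40-fold) from 2i to EpiLCs, with a limma adjusted p of 0.0083. In EpiSCs it was 0.61 higher than in EpiLCs (limma adjusted p = 0.0022). Without EpiSC array 1 this was 0.54 and without array 2 it was 0.68, both called. Without EpiLC array 1 the fall from 2i was 0.42 log2 and missed the threshold (limma adjusted p = 0.058). The second Pou5f1 probe showed the same fall, -0.62 (SE 0.13, limma adjusted p = 0.0023). The single-reporter line read 13.43 and 13.34, a difference of -0.27 from serum RFP- cells that was not called (limma adjusted p = 0.089), but was called without background correction (limma adjusted p = 0.026). Against serum RFP+ cells that line was 0.40 log2 lower with the tested probe (limma adjusted p = 0.02). That call was lost without serum RFP+ array 1 or 2 (limma adjusted p = 0.063 and 0.085) or single-reporter array 2 (limma adjusted p = 0.1), and with the mean of the detected probes (limma adjusted p = 0.2). Against serum RFP- cells the second probe differed in direction, at 0.35 (limma adjusted p = 0.04), with 13.45 and 13.59 against 13.13 and 13.22. From serum RFP- to 2i, Pou5f1 was not called (-0.10, interval -0.38 to 0.18). Neither was it called between EpiSCs and 2i (0.13, interval -0.15 to 0.41), at 0.06 without EpiSC array 1 and 0.20 without array 2.

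Sox2 showed the steepest fall of the 6 on leaving the naive state. It read 10.10 and 9.89 in 2i, 6.76 and 6.63 in EpiLCs and 5.93 and 6.33 in EpiSCs. No EpiLC or EpiSC array reached the ESC range, which started at 9.52. The fall from 2i to EpiLCs was -3.30 (SE 0.15, 9.87-fold, limma adjusted p = 8.5e-08), and to EpiSCs -3.87 (SE 0.15, 14.6-fold, limma adjusted p = 2.2e-08). Without EpiSC array 1 the latter was -3.67 and without array 2 it was -4.07. The second Sox2 probe fell too, by 3.22 in EpiLCs and by 2.42 in EpiSCs, where it was -2.51 without EpiSC array 1 and -2.34 without array 2. In MEFs the tested probe read 5.54 and 5.83, with detection p-values of 0.14 and 0.081. Serum and 2i did not separate for Sox2, with a difference of 0.23 and an interval of -0.11 to 0.58.

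The order of EpiLCs and EpiSCs for Sox2 depended on the probe. With the tested probe, EpiSCs were 0.57 lower (limma adjusted p = 0.01). The other probe read 6.81 and 6.63 in EpiSCs and 6.19 and 5.67 in EpiLCs, where it was detected on 1 of the 2 arrays. Its fitted difference was 0.79 in the opposite direction (limma adjusted p = 0.028), or 0.70 without EpiSC array 1 (limma adjusted p = 0.096) and 0.88 without array 2 (limma adjusted p = 0.047). The tested probe's difference was not called without EpiSC array 1 (-0.37, limma adjusted p = 0.061) or without EpiLC array 1 (-0.50, limma adjusted p = 0.065), nor without background correction (-0.23, limma adjusted p = 0.051). A larger conflict appeared in the single-reporter line. There the tested probe read 9.74 and 9.52, within 0.13 of serum RFP- cells, while the other read 5.73 and 6.60 and was detected on 1 of the 2 arrays. The difference between their changes was 2.66 (SE 0.34). Both probes are annotated to the same transcript.

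Nanog was high throughout, with its own order of groups: highest in EpiSCs and 2i and lowest in the single-reporter line. It read 13.58 and 13.49 in serum RFP- cells, 14.01 and 14.05 in 2i, 13.64 and 13.76 in EpiLCs, 14.09 and 14.05 in EpiSCs and 12.64 and 12.86 in the single-reporter line. Both 2i arrays lay above all serum and EpiLC arrays, and both single-reporter arrays lay below all other pluripotent arrays. Nanog rose by 0.50 (SE 0.09, 1.42-fold) from serum RFP- cells to 2i, with a limma adjusted p of 0.0021. It fell by 0.33 (SE 0.09) from 2i to EpiLCs (limma adjusted p = 0.012). That call was lost without 2i array 2 (limma adjusted p = 0.063) or EpiLC array 1 (limma adjusted p = 0.089). EpiSCs were 0.37 above EpiLCs (limma adjusted p = 0.0073), and 0.35 or 0.39 above them with EpiSC array 1 or 2 left out. Without EpiLC array 1 that difference was 0.31 and not called (limma adjusted p = 0.059), nor was it with median scaling (0.18, limma adjusted p = 0.13). EpiSCs and 2i were not separated (0.04, interval -0.17 to 0.25), at 0.02 and 0.06 without EpiSC array 1 and 2, although with median scaling in place of quantile normalisation EpiSCs were lower by 0.37 log2 (-0.37, limma adjusted p = 0.0068). The single-reporter line was 0.79 log2 lower than serum RFP- cells (1.73-fold, limma adjusted p = 5.8e-05). Nanog has a single probe on the array, so no second reading of these changes exists here.

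Sall4 was highest in both serum groups of the double-reporter line and lower in 2i, EpiLCs, EpiSCs and the single-reporter line. The tested probe read 14.11 on both serum RFP- arrays, 13.62 and 13.81 in 2i, 13.50 on both EpiLC arrays, 13.60 and 13.68 in EpiSCs and 13.27 and 13.31 in the single-reporter line. The difference between 2i and serum RFP- cells was -0.39 (SE 0.11, limma adjusted p = 0.02). It was not called without 2i array 1 (limma adjusted p = 0.14) or without either serum RFP- array (limma adjusted p = 0.083 each), nor with median scaling (-0.18, limma adjusted p = 0.19). The difference of -0.22 between EpiLCs and 2i was not called (limma adjusted p = 0.14), but was with median scaling (-0.46, limma adjusted p = 0.0034) and without background correction (-0.21, limma adjusted p = 0.036). In the single-reporter line Sall4 was 0.81 log2 lower than in serum RFP- cells (1.76-fold, limma adjusted p = 0.00017). EpiSCs and 2i did not differ beyond the spread with this probe (-0.07, interval -0.33 to 0.18), at -0.03 without EpiSC array 1 and -0.11 without array 2. With median scaling, however, EpiSCs were lower (-0.47, limma adjusted p = 0.0023).

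A second Sall4 probe gave a different picture in EpiSCs. It is annotated to another RefSeq transcript of the gene, and read 12.46 and 12.35 in 2i, 12.66 and 12.21 in EpiLCs but 10.03 and 9.97 in EpiSCs. The EpiSC arrays lay below all 10 other pluripotent arrays, of which the lowest read 11.31. From 2i to EpiSCs this probe fell by 2.41 (SE 0.15, 5.30-fold, limma adjusted p = 4.5e-07), and by 2.44 and 2.38 without EpiSC array 1 and 2. It also fell from serum RFP- cells to 2i, by 0.97 (limma adjusted p = 0.00073), and in the single-reporter line by 2.00 (limma adjusted p = 2.5e-06). The last Sall4 probe, annotated to the same transcript as the second, lay near background and was detected on 6 of 14 arrays, none of them from EpiSCs, EpiLCs, 2i or MEFs.

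Probes of 1 gene were compared within each array in a limma fit chosen after the data were seen, over all 3939 pairs of probes from 2785 genes. For Sall4, the change from 2i to EpiSCs was 2.33 (SE 0.18) higher with the tested probe than with the second (limma adjusted p = 5.5e-06). That gap was 2.40 without EpiSC array 1 and 2.26 without array 2, and it was larger in size than 98.1% of all pairs. In the same comparison 41% of all pairs differed, against 12.5% between EpiLCs and 2i. For Sox2 in the single-reporter line against serum RFP- cells, the gap of 2.66 had a limma adjusted p of 1e-04, and 49.8% of all pairs differed there. In that comparison the gap was 1.18 for Sall4 (limma adjusted p = 0.00029) and -0.62 for Pou5f1 (limma adjusted p = 0.0093). From 2i to EpiSCs the Sox2 gap was -1.45 (limma adjusted p = 0.0068), which was not recomputed without each EpiSC array. What sets these probes apart was not tested, and probe sequences were not used here.

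**Figure D2:**
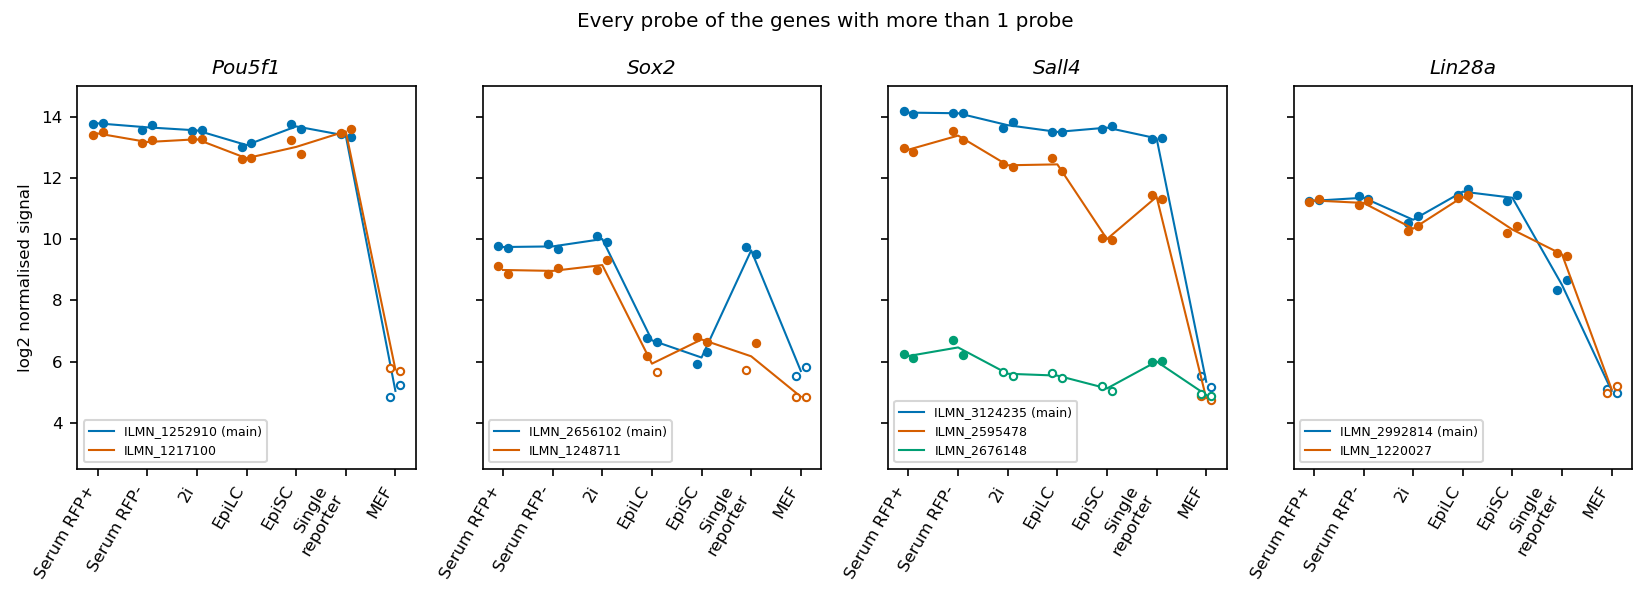
Log2 normalised signal (vertical axes) of every probe of Pou5f1, Sox2, Sall4 and Lin28a over the 7 groups (horizontal axes). Points are arrays, open where the detection p-value was 0.05 or above, and lines join the group means. The probes of a gene part ways for Sox2 and Lin28a in the single-reporter line and for Sall4 in EpiSCs, where the second probe read 10.03 and 9.97.

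Utf1 was highest in the serum groups of the double-reporter line and lower in every other group. It read 12.61 and 12.51 in serum RFP+ cells, 12.64 and 12.65 in serum RFP- cells, 11.65 and 11.53 in 2i and 11.66 and 11.73 in EpiLCs. All 4 serum arrays of the double-reporter line lay above every other array. From serum RFP- to 2i, Utf1 fell by 1.06 (SE 0.19, 2.08-fold, limma adjusted p = 0.0018), the largest fall of the 6 in that comparison. The single-reporter line, at 12.02 and 12.01, was 0.63 log2 lower than serum RFP- cells (limma adjusted p = 0.017). That call was lost when any of the 4 arrays of those groups was left out, although the change stayed at -0.64 to -0.63. The SE of 0.19 is pooled over all groups, so it takes in the wide EpiSC pair described below. Between 2i and EpiLCs the difference was 0.11, with an interval of -0.32 to 0.54. The EpiSC arrays differed from each other by more than any other pair of replicates for this gene, at 11.99 and 11.21. With both, EpiSCs minus 2i was 0.01. Without array 1 it was -0.38 (limma adjusted p = 0.0022), and without array 2 it was 0.40 (limma adjusted p = 0.0016). Against EpiLCs the values were -0.10 with both, -0.48 without array 1 (limma adjusted p = 0.00065) and 0.29 without array 2 (limma adjusted p = 0.011). The direction of Utf1 in EpiSCs thus rests on which array is used.

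Lin28a was low in 2i and lower still in the single-reporter line. Serum RFP- cells read 11.40 and 11.30, 2i cells 10.52 and 10.74, EpiLCs 11.44 and 11.65, EpiSCs 11.24 and 11.45 and the single-reporter line 8.35 and 8.65. The 2i arrays lay below all serum arrays of the same line and all EpiLC and EpiSC arrays, and the single-reporter arrays lay below these. Lin28a fell by 0.72 (SE 0.13, 1.64-fold) from serum RFP- cells to 2i (limma adjusted p = 0.0018). It rose by 0.92 (SE 0.13, 1.89-fold) from 2i to EpiLCs (limma adjusted p = 0.00021). In the single-reporter line it was 2.85 log2 (7.21-fold) lower than in serum RFP- cells (limma adjusted p = 1.4e-07). The second probe fell there too, by 1.68 (limma adjusted p = 1.8e-06), and the gap between the probes' changes was -1.17 (limma adjusted p = 0.00015). Both probes agreed on 2i against serum and on EpiLCs against 2i, with -0.84 and 1.04 from the second. In EpiSCs they did not. The tested probe rose by 0.71 from 2i (limma adjusted p = 0.00082), or by 0.82 and 0.61 without EpiSC array 1 and 2, while the second read -0.03 (interval -0.30 to 0.23), or 0.08 and -0.15 without those arrays. The gap was 0.75 (limma adjusted p = 0.0038), and 0.74 and 0.76 without them.

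By comparison, 4 of 6 factors changed from serum RFP- to 2i (Nanog higher, and Sall4, Utf1 and Lin28a lower), where 39.7% of all genes were called (19.7% higher and 20% lower). Counts of factors here use the tested probe of each gene. From 2i to EpiLCs 4 of 6 changed (Lin28a higher, and Pou5f1, Sox2 and Nanog lower) against 55.1% of all genes. From 2i to EpiSCs 2 of 6 changed (Lin28a higher and Sox2 lower) against 66.3%, and 3 when either EpiSC array was left out. Between EpiLCs and EpiSCs 3 of 6 differed (Pou5f1 and Nanog higher in EpiSCs and Sox2 lower) against 56.4% (27.9% higher and 28.5% lower). The second Pou5f1 probe was also higher in EpiSCs (0.37, limma adjusted p = 0.032), while other second probes differed from the tested ones. Sox2 was higher with it (0.79), Sall4 lower by 2.44 (limma adjusted p = 1.1e-06) and Lin28a lower by 1.08 (limma adjusted p = 4.8e-05). The second Lin28a probe read 10.19 and 10.42 in EpiSCs and 11.34 and 11.43 in EpiLCs. Of these second probes, only Sox2 was recomputed without each EpiSC array. In the single-reporter line 4 of 6 were lower than in serum RFP- cells and none was higher, against 58.5% of all genes called, 29% higher and 29.5% lower. The median change of the 6 there was -0.71, beside 0.01 over all genes. In that comparison 7 of 11 fibroblast markers were higher, 1 was lower and 3 were not called. The part of other cells in the result was not tested. The comparisons share groups, so their values are not independent of each other.

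**Figure D3:**
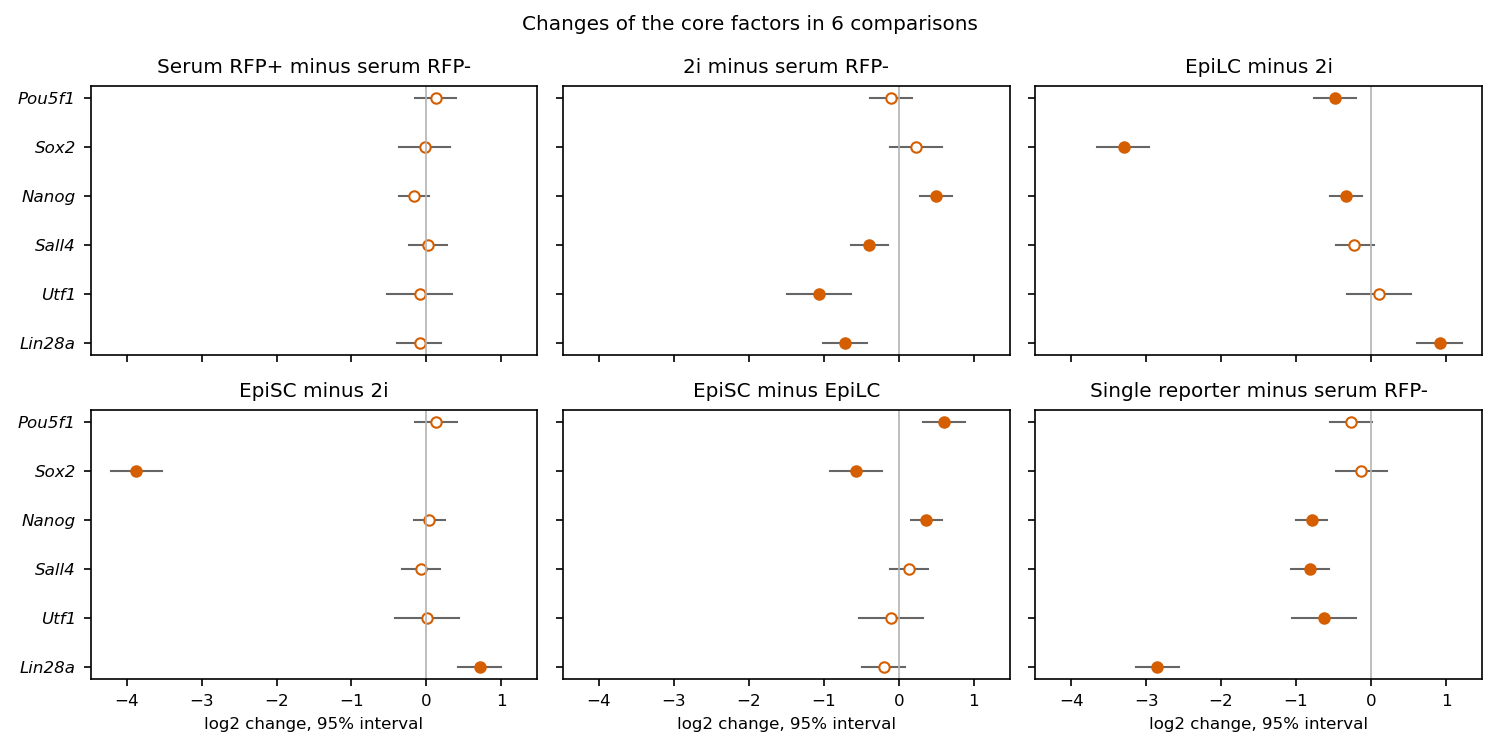
Log2 change of each core factor (horizontal axes, with 95% intervals) in 6 comparisons (panels). Filled points were called at a limma adjusted p under 0.05. No factor was called between the serum gates, Sox2 fell by 3.30 and 3.87 from 2i to EpiLCs and EpiSCs, and Lin28a was 2.85 log2 lower in the single-reporter line.

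Other members of the same protein families moved in several directions. Among POU factors, 5 of 10 listed genes were tested, and from 2i to EpiLCs 2 rose and 1 fell, where 27.5% of all genes were higher and 27.6% lower. Pou3f1, a primed-state POU factor also known as Oct6, read 8.06 and 8.38 in 2i, 11.97 on both EpiLC arrays and 11.90 and 11.12 in EpiSCs. It rose by 3.75 in EpiLCs (SE 0.21, limma adjusted p = 2.9e-07) and fell by 2.45 from serum RFP- cells to 2i. Pou6f1 rose by 2.40 in EpiLCs, where it read 9.41 and 9.36, and was not detected in EpiSCs, at least 12.7-fold below EpiLCs (12.6 and 12.9 without EpiSC array 1 and 2). Pou4f1 was not detected in EpiLCs and was at least 4.94-fold below 2i there.

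Of 11 listed Sox factors, 7 were tested, with 1 higher and 4 lower in EpiLCs than in 2i, against 27.5% and 27.6% of all genes. Sox15, which can bind the same DNA sites as Sox2, read 8.32 and 8.44 in 2i and was not detected in EpiLCs, at least 6.03-fold lower. It was detected in EpiSCs, at 7.32 and 6.88. Sox12 rose by 1.22 in EpiLCs (limma adjusted p = 3.3e-05), and Sox13 fell by 1.33 (limma adjusted p = 6.2e-06). Sox17, an endoderm factor, was detected among the 7 groups only in EpiSCs, at 8.06 and 6.76, and was at least 2.94-fold above 2i. Without EpiSC array 1 that bound was 1.88-fold and without array 2 it was 4.60-fold.

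The tested relatives of Sall4 changed in opposite directions. Sall1 read 10.66 and 10.69 in 2i and 8.70 and 8.66 in EpiLCs, so it fell by 1.99 (limma adjusted p = 7.5e-06). Sall2 read 7.99 and 8.14 in 2i, 10.14 and 10.21 in EpiLCs and 10.51 and 10.86 in EpiSCs. It rose by 2.11 and 2.62 (limma adjusted p = 5.4e-07 and 9.2e-08), the latter being 2.80 and 2.44 without EpiSC array 1 and 2.

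In the Lin28 and let-7 group, 7 of 11 listed genes were tested, and from 2i to EpiLCs 3 were called higher and 0 lower, against 27.5% and 27.6% of all genes. Of these 3, Hmga2 was not detected on any 2i or EpiLC array, so no change is given for it. Arid3b and Igf2bp1, whose transcripts are known let-7 targets, rose by 0.83 and 0.54 (limma adjusted p = 5.4e-05 and 0.0054). The number called ranged from 2 to 5 with 1 array left out, and was 5 without EpiSC array 1 or 2 and 2 without 2i array 1 or either EpiLC array. From serum RFP- cells to 2i, Igf2bp1 fell by 0.55 while Dis3l2, a nuclease of let-7 precursors, rose by 0.85 and Igf2bp3 by 0.72. In the single-reporter line, where Lin28a was lowest among the pluripotent groups, 1 of the 7 was higher and 2 were lower than in serum RFP- cells, against 29% and 29.5% of all genes. Igf2bp1 was lower by 0.90 log2 (-0.90, limma adjusted p = 0.00024). With 1 array left out, 1 to 3 of the 7 were called, and the 1 was without single-reporter array 2.

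**Figure D4:**
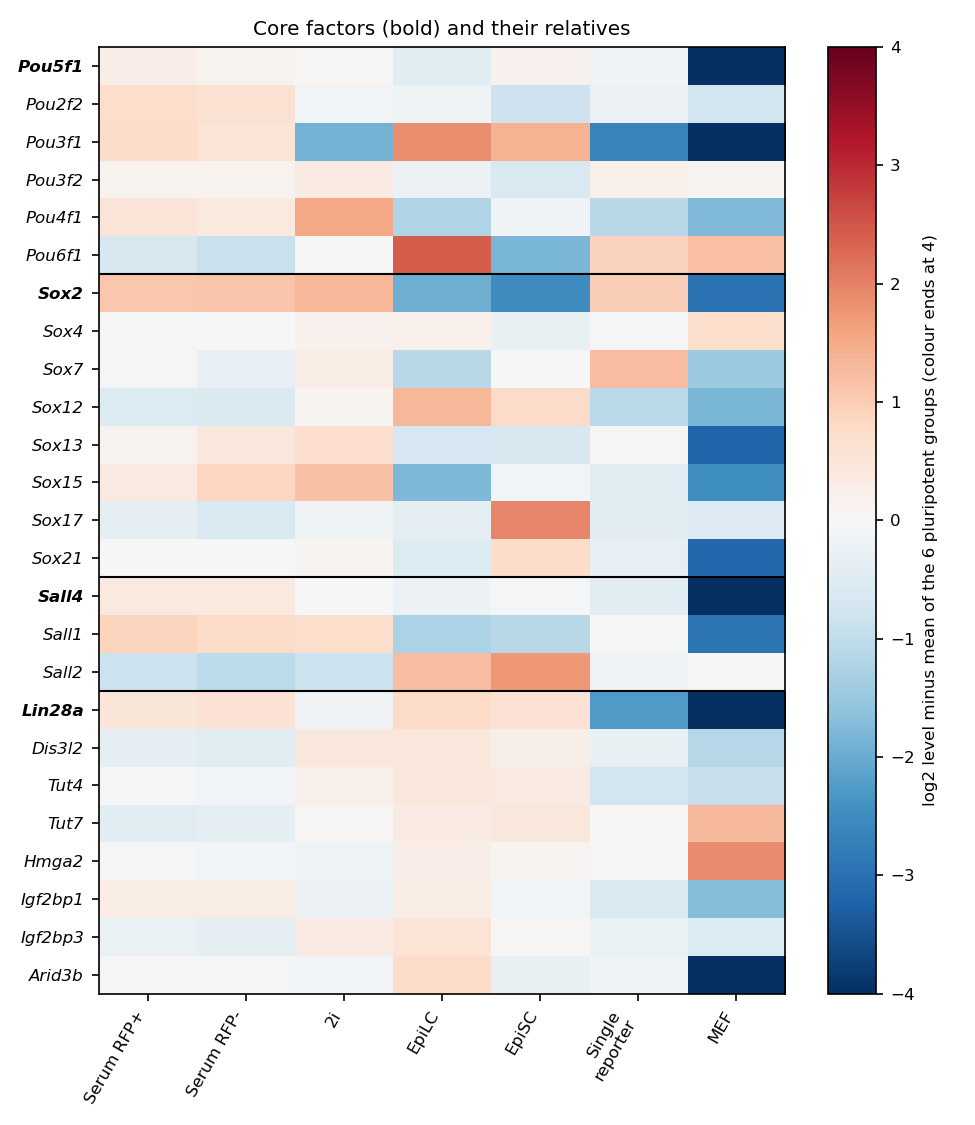
Mean log2 level of the core factors (bold) and tested genes of their families (rows) in each group (columns), as the difference from the mean of the 6 pluripotent groups. Colour runs from 4 log2 below that mean to 4 above, and lines part the POU, Sox, Spalt and Lin28 groups. Pou3f1 and Sall2 are high in EpiLCs and EpiSCs, where Sox2 and Sall1 are low.

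Known targets of Oct4 and Sox2 were tested for 9 of 13 listed genes. From 2i to EpiLCs 6 were lower and 0 higher, where 27.6% of all genes were lower and 27.5% higher, and the list's median change was -1.01 beside -0.01 over all genes. Dppa4 fell by 5.36 (SE 1.21, limma adjusted p = 0.0038), Zfp42 (Rex1) fell by 4.55 (SE 0.51, limma adjusted p = 3.9e-05) and Fbxo15 fell by 2.77 (SE 0.24, limma adjusted p = 6.6e-06). Fgf4, a growth factor of the inner cell mass, read 7.30 and 7.08 in 2i and was not detected in EpiLCs, at least 2.65-fold lower. From 2i to EpiSCs 7 were lower and 2 higher, against 33.9% and 32.4% of all genes, and all 9 stayed called with either EpiSC array left out. The higher pair, named after their values were seen, were Tdgf1 (1.85) and Lefty1 (0.77), which encode a co-receptor and an inhibitor of Nodal signalling. Without EpiSC array 1 and 2, Tdgf1 was 1.35 and 2.35 higher and Lefty1 0.66 and 0.89 higher.

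Partners of Oct4 and Nanog were tested for 16 of 18 listed genes, and 10 fell and 2 rose from 2i to EpiLCs, against 27.6% of all genes lower and 27.5% higher. Tbx3 was not detected in EpiLCs, at least 65.6-fold lower, and Nr5a2 was not detected there either, at least 43.8-fold lower. Esrrb fell by 5.93 (SE 0.73) and Klf2 by 4.21 (SE 0.09), with limma adjusted p of 7.9e-05 and 1.1e-09. The pooled SE of Esrrb takes in its wide EpiSC pair (11.32 and 8.16). The higher pair, chosen after their values were seen, were the chromatin remodellers Smarca4 (0.32) and Chd4 (0.20). From 2i to EpiSCs 12 were lower and 2 higher, against 33.9% and 32.4% of all genes, and 13 to 14 were called when any 1 array was left out. These genes share arrays with the core factors, and nothing here ties their changes to any of the 6.

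The genes whose levels ran most like each core factor over the 12 pluripotent arrays were ranked by Pearson's r, given without a test because arrays of 1 group share their cells. For Sox2 they were Dppa3 (0.993), Kat2b (0.992) and Smpdl3b (0.991), and for Lin28a Arid2 (0.996), Tjp1 (0.990) and Oser1 (0.988). Nanog ran closest to Idh2 (0.987), Insig1 (0.974) and Npc2 (0.968). For Sall4 the closest were Med20 (0.982), Trappc13 (0.966) and Hook2 (0.964). Utf1 ran closest to Slc7a7 (0.968), Pes1 (0.953) and Nhp2 (0.953). Pou5f1, which varied least, had the lowest top values, with Smagp (0.948), Mtus1 (0.941) and Eif3l (0.936).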

How the data were processed

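Biotin-labelled cRNA of 14 samples was hybridised. Per the file headers, the authors deposited a scanner table with a raw signal intensity and a detection p-value for each of 25697 probes. The submitters' processing notes name GenomeStudio 2011.1. The authors also deposited log2 values, with a method not given in the sources used here. Of these, 100% lay within 0.01 of log2 scanner signals quantile-normalised without background correction. Signals were corrected and normalised with neqc (limma 3.58.1, R 4.3.3; offset 16), and 11916 to 13815 probes per array were detected (detection p-value under 0.05). A gene was tested through its brightest probe among those detected on both arrays of at least 1 group, and all probes of the 6 factors are described (23978 probes had 1 symbol, 1719 none). Group means were fitted in limma over all 14 arrays (7 residual degrees of freedom, prior 2.5). The SE of any comparison therefore takes in the spread of every group, EpiSCs included. The number of arrays limits precision: the median half-width of a 95% interval was 0.289 log2. Where a probe was undetected on the dimmer side, "at least N-fold" sets the brighter mean against, per array, the higher of that probe's signal and the lowest detected signal. Replicate numbers did not pair samples (correlations of replicate differences between groups from -0.03 to 0.09 over 21 pairs of groups). Other genes named are the 3 most correlated with each factor and some tested genes of the POU, Sox, Spalt and Lin28 lists. From every other list, up to 4 called genes with the largest change are named. For the tested family genes Pou2f2, Pou3f2, Sox4, Sox21, Tut4 and Tut7, the text gives no level or change. The factors and lists were chosen with earlier results of these data known. Alternatives were background correction, scaling, the authors' values, other probe and variance choices, and leaving out each array. The fit was tested on simulated data.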

Additional observations from a re-analysis of the deposited data

How the results depend on the processing

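Of 960 recomputed changes of the core factors, 908 kept their direction and side of the threshold, 19 lost and 14 gained a call, and 19 reversed; the causes were not tested. The replicate block left the counts of core factors unchanged in all 7 comparisons (4, for example, in EpiLC minus 2i), the neighbouring groups called at 15 and, in limma, every call of a core factor. With median scaling, which moved the median of all genes by -0.11 (EpiLC minus 2i), -0.17 (EpiSC minus 2i) and -0.22 (MEF), reversals were Nanog -0.37, Pou5f1 -0.25 and Utf1 -0.24 in EpiSC minus 2i, Pou5f1 0.09 in 2i minus serum RFP-, Sall4 -0.01 in EpiSC minus EpiLC and Utf1 -0.11 in EpiLC minus 2i; 4 factors were then called in EpiSC minus 2i, and 39.3% of calls were higher in EpiLC minus 2i (2377 against 3664 lower), against 49.9% with quantile normalisation. With the mean of detected probes, reversals were Pou5f1 -0.06 in EpiSC minus 2i and 0.04 in the single-reporter line, Sall4 -0.91 and Sox2 0.11 in EpiSC minus EpiLC, and Sall4 -0.24 and Sox2 0 between the serum gates; Sox2 in the single-reporter line became -1.46 and Sall4 in EpiSC minus 2i became -0.99, both called in limma. With only the arrays of the groups compared, 3403 genes (5909 with all arrays) and 1 factor were called in EpiSC minus EpiLC and 0 genes between the gates in limma (13 with all arrays; 1367 and 578 had an unadjusted p under 0.05). Leaving out 1 array reversed Sall4 (0.02) and Utf1 (range -0.38 to 0.40, with -0.04 without a 2i array) in EpiSC minus 2i, Utf1 in EpiSC minus EpiLC (range -0.48 to 0.29), and Sall4 (range -0.02 to 0.06) and Sox2 (range -0.09 to 0.04, and 0) between the gates. The second Lin28a probe reversed in EpiSC minus 2i (0.08 without EpiSC array 1 and -0.15 without array 2), in alternatives added after the data were seen, as were those for the other second probes, the relatives and targets in EpiSCs, and Pou5f1 in the single-reporter line against serum RFP+ cells. Genes called then ranged over 1 to 46 between the gates, 2916 to 5259 in 2i minus serum RFP-, 4822 to 6605 in EpiLC minus 2i, 6072 to 7330 in EpiSC minus 2i, 4805 to 6323 in EpiSC minus EpiLC, 5122 to 6949 in the single-reporter line and 8113 to 9106 in MEFs. Factors called ranged, in the same order, over 0 to 0, 3 to 4, 2 to 4, 2 to 3, 1 to 4, 3 to 5 and 6 to 6, and neighbouring groups called over 12 to 17. Where leaving out an array leaves 1 in a group, that array is assumed to vary like the others.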
